A study of Mus musculus with 23 samples.

Results

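The regions described here are the exon peaks of an ATAC-seq peak table from mouse natural killer (NK) cells and type 1 innate lymphoid cells (ILC1s), that is, every row the deposited table types as exon. They numbered 3426 of 51412 peaks, beside 18011 promoter, 15272 intron and 14703 intergenic peaks. ATAC-seq cuts DNA with a transposase where chromatin is open, so the count of a peak measures accessibility. 4 sorted populations were profiled with 2 libraries each, 50000 cells per library: liver NK, spleen NK, liver ILC1 and salivary gland ILC1. The series text gives the NK gate as NK1.1+NKp46+CD49a-CD49b+ and the ILC1 gate as NK1.1+NKp46+CD49a+, whereas the sample labels name reporters instead, S1pr5eGFP+ for NK cells and GzmC+GzmcFM+ for ILC1s. The spleen was dissociated mechanically, the liver with collagenase D and the salivary gland with collagenase III and DNase, so organ and preparation cannot be told apart. Libraries are labelled only as mouse replicates 1 and 2, and p-values therefore measure the spread between these samples. The second readout was bulk RNA-seq of liver cells from reporter mice numbered 1 to 6: S1pr5eGFP+ NK cells in 4 libraries, and ILC1s in 4 GzmC+GzmcFM+ (DP), 4 GzmC-GzmcFM+ (FMSP) and 3 GzmC-GzmcFM- (DN) libraries. The sources used here state no strain, age or treatment.

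Most open chromatin outside promoters lies at enhancers, stretches where transcription factors displace nucleosomes and act on a gene at a distance. Some enhancers overlap exons of their own or a neighbouring gene, and an exon peak can also mark the start of another transcript that lies inside the gene. NK cells circulate and depend on factors such as Eomes, while ILC1s stay in tissues such as liver and salivary gland and carry residency molecules such as CXCR6 and CD49a.

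Exon peaks were narrower than promoter peaks and lay mostly far from the start of their gene. Each peak carries 1 type, and promoter is a separate type. The positions along genes, distances from starts and shares holding a start, given below, are therefore not independent of the typing. Their median width was 928 bases, against 1237 for promoter, 893 for intron and 891 for intergenic peaks. They were assigned to 2813 genes, of which 2319 had 1 exon peak, 394 had 2, 87 had 3, 8 had 4, 4 had 5 (Pdzd2, Myo6, Tiam2 and Myh9) and 1, Igf2r, had 6. RefSeq gene spans on GRCm38.p6, the assembly that mm10 names, were matched to 3269 exon peaks, and 3144 of these (96.2%) touched the span of the assigned gene. Of 2473 peaks with a position along the gene, 1182 (47.8%) lay in the last of 5 equal stretches and 125 (5.05%) in the first. The median distance from the nearest RefSeq start of the gene was 26270.5 bases over 2575 peaks, 2037 of them (79.1%) lay over 10000 bases away, and 6 lay within 2000. The table also held a promoter peak of the same gene for 2398 exon peaks (70.0%), at a median gap of 18938 bases.

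**Figure D1:**
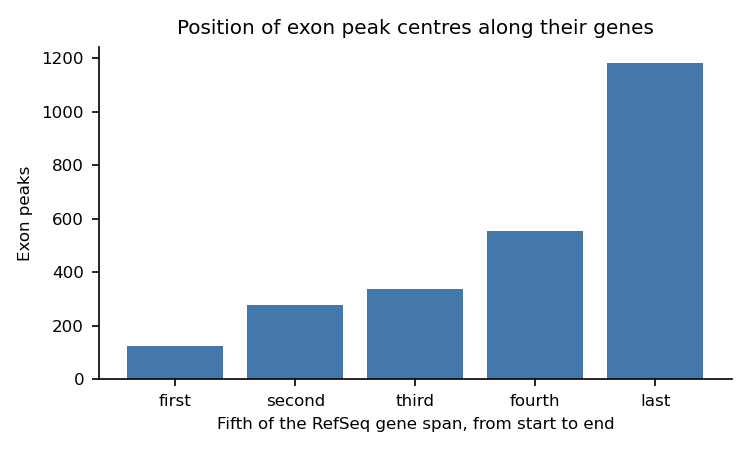
Number of exon peaks (vertical axis) by the stretch, of 5 equal ones, of the assigned RefSeq gene span in which the peak lies (horizontal axis, from the start of the gene to its end), for 2473 peaks. Counts rise from 125 in the first stretch to 1182 in the last.

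A few exon peaks sat on an annotated start of a transcript. 32 exon peaks (0.934%) held a RefSeq start, against 9014 promoter peaks (50.0%), 1.65% of intergenic and 0.609% of intron peaks. In 3 of the 32 the start was that of the assigned gene, among them Hist1h2be (H2bc6 in RefSeq), which encodes a replication-dependent histone H2B. In most of the others it belonged to a non-coding RNA gene with its own start within or beside the assigned gene. The windows below are the 250 bases before such starts, taken from RefSeq on GRCm38.p6, each lying wholly inside its exon peak. They are shown because they are the regulatory sequence that the reference tables hold for these peaks, and because the Hist1h2be, Rai14, Il2ra, Rab3ip and Cmya5 peaks differed between populations. Letters are lower case, with matches to the motifs searched in capitals.
Hist1h2be peak, start of H2bc6, chr13:23585971-23586220, minus strand: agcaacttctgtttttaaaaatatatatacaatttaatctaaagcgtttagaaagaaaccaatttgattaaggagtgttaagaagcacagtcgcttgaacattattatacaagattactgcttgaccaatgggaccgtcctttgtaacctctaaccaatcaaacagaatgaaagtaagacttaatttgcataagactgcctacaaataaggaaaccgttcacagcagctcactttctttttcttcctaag
Rai14 peak, start of Gm10389, chr15:10600043-10600292, plus strand: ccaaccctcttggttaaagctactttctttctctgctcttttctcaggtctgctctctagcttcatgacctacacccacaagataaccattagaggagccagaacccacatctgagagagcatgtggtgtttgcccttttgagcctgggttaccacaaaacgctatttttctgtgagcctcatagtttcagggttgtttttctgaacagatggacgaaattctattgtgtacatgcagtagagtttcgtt
Il2ra peak, start of Gm39759, chr2:11693361-11693610, plus strand: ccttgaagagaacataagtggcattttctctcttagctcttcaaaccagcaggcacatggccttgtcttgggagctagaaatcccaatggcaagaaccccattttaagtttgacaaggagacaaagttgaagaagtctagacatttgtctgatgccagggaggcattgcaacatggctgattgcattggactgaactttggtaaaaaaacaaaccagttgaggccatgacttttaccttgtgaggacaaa
Rab3ip peak, start of Gm51782, chr10:116913915-116914164, plus strand: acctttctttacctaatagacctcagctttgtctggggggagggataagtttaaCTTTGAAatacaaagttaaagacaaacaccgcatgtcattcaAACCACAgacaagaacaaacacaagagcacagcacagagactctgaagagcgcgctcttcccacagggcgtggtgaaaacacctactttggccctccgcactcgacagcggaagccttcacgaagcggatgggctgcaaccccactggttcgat
Cmya5 peak, start of A630019I02Rik, chr13:93094583-93094832, plus strand: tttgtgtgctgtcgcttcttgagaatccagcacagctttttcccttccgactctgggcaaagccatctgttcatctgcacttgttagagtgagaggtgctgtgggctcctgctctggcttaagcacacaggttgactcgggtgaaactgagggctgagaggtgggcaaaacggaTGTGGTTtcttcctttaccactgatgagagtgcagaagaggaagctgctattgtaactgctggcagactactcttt
The motifs were searched on both strands. Of 32851 RefSeq windows of the same length, 6.75% held the AP-1 letters TGANTCA, 4.40% the RUNX letters AACCACA, 1.12% the T-box letters AGGTGTGA, 2.90% the ETS letters ACAGGAAG, 10.4% the KLF/SP letters GGGGCGGGG, 4.46% the TCF/LEF letters CTTTGAA, 1.34% the NR4A letters AAAGGTCA and 12.4% the TATA letters TATAAA. The Rab3ip window held a RUNX and a TCF/LEF match and the Cmya5 window a RUNX match on the reverse strand; none of the letters searched were present in the other windows printed. A match is a description of the letters only. The Hist1h2be window had a GC content of 33.6%, against a median of 52.4% over all windows.

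Counts are given below as CPM, the reads of a peak scaled to a common library size after trimmed-mean (TMM) scaling. Only the median exon peak per library and the summed promoter signals of marker genes are CPM of library totals alone, without TMM. The Rai14 peak, in the gene of an actin-associated ankyrin-repeat protein, read 29.4 and 26.4 CPM in liver NK, 22.7 and 14.0 in liver ILC1, 27.3 and 29.1 in spleen NK and 80.8 and 80.5 in salivary gland ILC1. Both salivary gland libraries were therefore above the other 6, and the peak was 2.16 ± 0.19 (SE) log2 higher than in liver ILC1 (edgeR adjusted p = 1.73e-26). The Hist1h2be peak read 28.2 and 44.7 CPM in liver NK, 38.4 and 57.5 in liver ILC1, 92.1 and 79.1 in spleen NK and 80.1 and 88.4 in salivary gland ILC1, with all 4 liver libraries below the 4 others. Histone genes are near-identical copies, so reads of this peak could belong to another copy.

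Across the 8 libraries 5609587 to 26944890 counts fell in peaks, and exon peaks took 3.75% to 4.95% of them. Depth went with organ: liver libraries held 5609587 to 9957335 counts, spleen NK 14270504 and 11101944, and salivary gland ILC1 16058700 and 26944890. Organ and depth therefore cannot be told apart in comparisons between organs. Promoter peaks took 53.6% and 55.4% in liver NK, 57.2% and 60.4% in liver ILC1, 61.4% and 61.9% in salivary gland ILC1 and 65.2% and 63.8% in spleen NK. In CPM of library totals alone, the median exon peak was at 7.83 to 10.8 in the 4 liver libraries. It was at 5.68 to 6.41 in the 4 others, with no overlap. Marker genes of each population followed the labels at promoter peaks: the summed CPM of 15 of 18 NK genes was 754 to 921 in NK and 476 to 578 in ILC1 libraries, and that of 17 of 20 ILC1 genes was 348 to 440 in NK and 621 to 875 in ILC1 libraries. These lists were chosen with earlier results of these data known, so this is not an independent check of identity. Promoter peaks were listed for 2 of 10 B cell, 2 of 12 macrophage, 3 of 14 hepatocyte, 7 of 15 T cell, 6 of 15 salivary gland epithelial and 2 of 10 neutrophil marker genes, with none for Ms4a1, Clec4f, Adgre1, Alb, Ttr, Cd4, Cd8a, Krt5, Aqp5, S100a8 or S100a9. The T cell sum was 214 to 289 CPM over all libraries. The neutrophil sum, of 2 genes, was higher in ILC1s of each organ pair. It was 78.8 to 81.7 CPM in liver ILC1 against 46.4 to 49.1 in liver NK, and 38.5 to 43.4 in salivary gland ILC1 against 25.8 to 28.8 in spleen NK. The macrophage sum, also of 2 genes, was lower in liver ILC1 (43.5 to 46.1 CPM) than in liver NK (65.6 to 66.9). It was 67.0 to 73.4 CPM in salivary gland ILC1 and 66.9 to 69.6 in spleen NK. The stellate cell and fibroblast sum was 63.5 to 84.7 CPM in the liver and 38.9 to 44.0 elsewhere. The hepatocyte sum was 60.3 to 68.8 CPM in the liver and 35.1 to 49.3 CPM in the other libraries. The epithelial sum was lowest in spleen NK (38.5 to 46.8 CPM, against 73.8 to 97.5 elsewhere). All these sums are also of library totals alone and were not computed with TMM factors. The choice of scaling moves the level between organs, as given below. The part of such cells in the differences below was not tested.

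The share of counts in exon peaks was 4.40% ± 0.211 (SD, n = 4 libraries) in ILC1 and 4.32% ± 0.588 in NK libraries. This difference of 0.0827 points was within the spread of the pooled libraries, which includes that between organs (2-sided exact permutation p = 0.8286, smallest possible 0.0286). The permutations here and below took no account of organ. By organ pair, the share was 4.95% and 4.68% in liver NK against 4.71% and 4.30% in liver ILC1. In spleen NK it was 3.75% and 3.88%, against 4.33% and 4.25% in salivary gland ILC1. As a share of the counts outside promoter peaks the values separated, at 10.87% to 11.20% in ILC1 and 10.50% to 10.77% in NK libraries, a difference of 0.393 points (exact permutation p = 0.0286, or 0.0857 adjusted over 3 peak types).

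The exon peaks spanned a wide range of levels. The mean CPM over the 4 populations ran from 0.632 to 306, with a median of 8.03 and 90% of peaks between 2.71 and 39.1. The highest was a peak of Chl1 (chr6:103648838-103649512), a neural cell adhesion gene, at 331 and 433 CPM in liver NK, 438 and 375 in liver ILC1, 246 and 182 in spleen NK and 280 and 163 in salivary gland ILC1. Liver libraries were all above the others at this peak. It was followed by peaks of Aqr (112 CPM, an intron-binding helicase), Tnfrsf1b (107 CPM, TNF receptor 2), Sctr (98.3 CPM, the secretin receptor), Midn (98.0 CPM), Ypel1 (95.4 CPM), Dnajb12 (94.4 CPM) and Ctdsp1 (88.5 CPM). The population with the highest mean was liver NK for 1050 tested peaks, salivary gland ILC1 for 1036, liver ILC1 for 768 and spleen NK for 570.

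Accessibility differed somewhere among the 4 populations at 2597 of 3424 tested exon peaks (75.8%, adjusted p below 0.05), against a background of 77.4% over all 51292 peaks tested. In these pools of sorted cells, a change in the number of cells with an open site and a change in openness per cell cannot be told apart.

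The first comparison set both ILC1 populations against both NK populations. Of the exon peaks 842 were higher and 809 lower in ILC1s, together 48.2%, where the background over all peaks was 44.0% (21.0% higher and 23.1% lower). The share was 33.6% for promoter, 50.7% for intron and 48.8% for intergenic peaks. The peaks with the highest fold belonged to Cxcr6, Denr, Slc39a14, Trip4, Dcaf7, Irak2, Pmpca, Fyn, Pex16 and Senp8, at 2.30 to 3.14 log2, and those with the lowest to Lpin1, Catsperd, AU019990, Fnip2, Asrgl1, Cd300e, Nfkb1, Lhcgr, Armc9 and Grhl3, at -4.09 to -2.61 log2.

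The Cxcr6 peak (chr9:123811678-123812388) lies in the gene of the CXCL16 receptor, which holds lymphocytes in liver sinusoids. It read 2.74 and 1.93 CPM in liver NK, 15.3 and 19.9 in liver ILC1, 1.64 and 2.54 in spleen NK and 19.1 and 23.8 in salivary gland ILC1. All 4 ILC1 libraries were above all 4 NK libraries, and the difference was 3.14 ± 0.21 log2 (adjusted p = 1.26e-46). The Dcaf7 peak (chr11:106056502-106058116), in the gene of a WD-repeat scaffold protein, read 11.2 and 8.53 CPM in liver NK, 43.8 and 44.8 in liver ILC1, 9.66 and 8.60 in spleen NK and 66.6 and 69.3 in salivary gland ILC1. Both NK populations were near the same level, and the difference was 2.52 ± 0.14 log2 (adjusted p = 3.37e-65).

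Denr encodes a factor for re-initiation of translation. Its peak read 7.57 and 7.24 CPM in liver NK, 25.6 and 28.0 in liver ILC1, 4.01 and 5.08 in spleen NK and 48.2 and 48.5 in salivary gland ILC1, 2.64 ± 0.16 log2 higher in ILC1s (adjusted p = 1.89e-60). Fyn, a Src-family kinase downstream of activating NK receptors, had 2 exon peaks. The one at chr10:39564260-39565248 read 5.48 and 4.83, 17.9 and 16.6, 2.37 and 1.76, and 18.7 and 18.2 CPM in the same order, and was 2.44 ± 0.20 log2 higher (adjusted p = 3.88e-31). Salivary gland and liver ILC1s were near the same level at this peak, whereas spleen NK lay below liver NK. At Slc39a14, which encodes a zinc transporter, the ILC1 populations were far apart, at 9.87 and 7.02 CPM in liver and 30.9 and 25.8 in salivary gland.

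Among the peaks lower in ILC1s, the one of Lpin1 (chr12:16580185-16580972), which encodes the phosphatidate phosphatase lipin 1, read 24.5 and 41.8 CPM in liver NK and 35.3 and 45.7 in spleen NK, against 2.09 and 3.32 in liver ILC1 and 2.67 and 0.906 in salivary gland ILC1. Its difference was -4.09 ± 0.18 log2 (adjusted p = 2.91e-113), and the groups did not overlap. The Catsperd peak, in a gene known for a sperm calcium channel subunit, read 58.3 and 71.1 CPM in liver NK, 77.8 and 82.2 in spleen NK, 11.8 and 7.70 in liver ILC1 and 5.13 and 5.02 in salivary gland ILC1 (-3.37 ± 0.15 log2, adjusted p = 1.92e-110). Nfkb1 encodes the p105 and p50 NF-κB subunit. Its peak at chr3:135585228-135586045 read 38.9 and 50.3 CPM in liver NK, 85.0 and 68.5 in spleen NK, 6.88 and 3.61 in liver ILC1 and 12.5 and 12.6 in salivary gland ILC1 (-2.88 ± 0.15 log2, adjusted p = 2.86e-81). Spleen NK was the highest and liver ILC1 the lowest population there. Fnip2, a partner of folliculin in nutrient signalling, was at 21.8 to 30.3 CPM over the NK and 0.906 to 7.18 CPM over the ILC1 libraries.

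**Figure D2:**
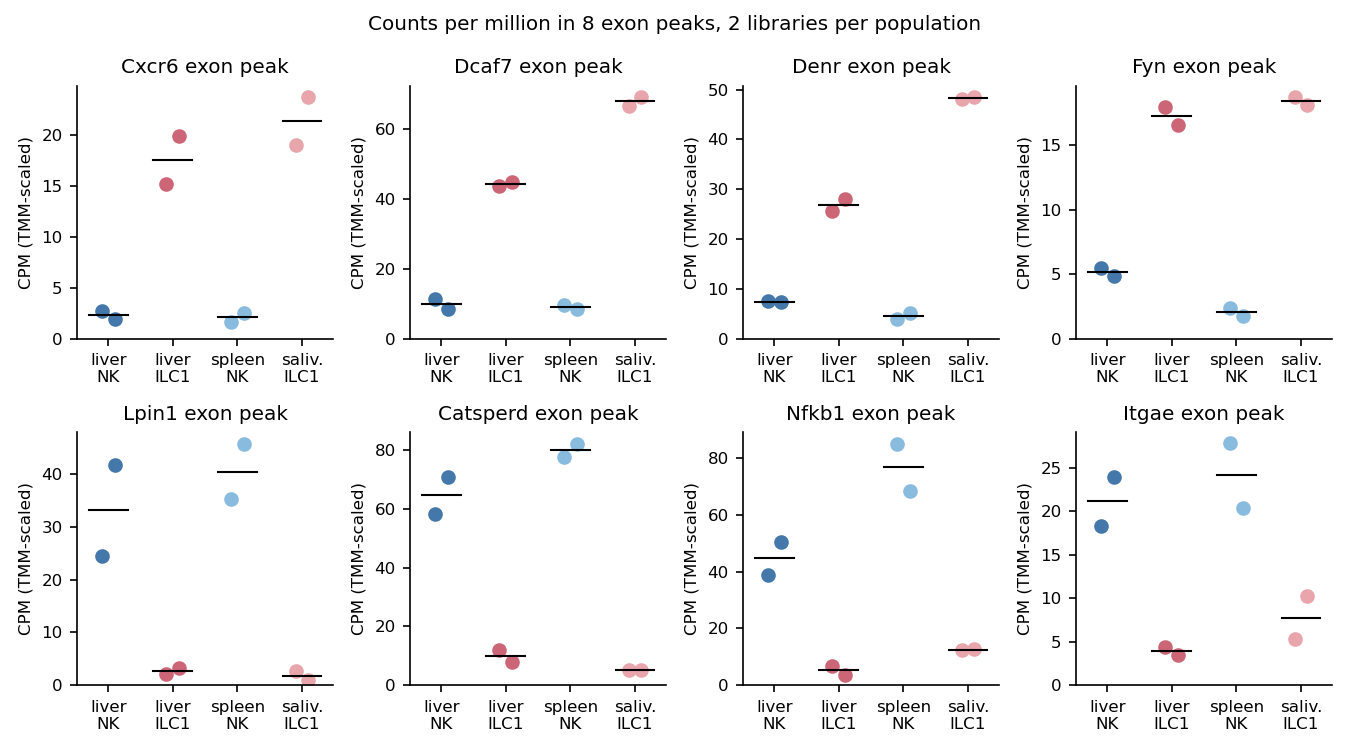
CPM of 8 exon peaks (panels) in each of the 8 libraries, grouped by population on the horizontal axis; points are libraries and lines the mean of 2 libraries. The Cxcr6, Dcaf7, Denr and Fyn peaks are high in both ILC1 populations, and the Lpin1, Catsperd, Nfkb1 and Itgae peaks are high in both NK populations.

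Gene groups with known roles held few exon peaks each, and their counts stand beside 24.6% higher and 23.6% lower over all exon peaks. Of 20 genes of the liver ILC1 list, 5 had an exon peak, and 5 of their 6 peaks were higher in ILC1s and none lower, with a median of 0.95 log2 over the 6 against 0.00 over all exon peaks. They belonged to Cxcr6, Tmem176a (2.15 log2, a transmembrane protein of the endosome system), Itga1 (1.09 log2, the CD49a chain of the ILC1 gate in the series text), Asb2 (0.81 log2) and Tnfsf10 (0.62 log2, the death ligand TRAIL). Within the liver alone, 3 of the 6 peaks were higher and 0 lower. The Itga1 peak read 15.1 and 15.3 CPM in liver NK, 20.6 and 30.2 in liver ILC1, 20.5 and 14.5 in spleen NK and 45.6 and 47.9 in salivary gland ILC1, with liver ILC1 replicate 1 close to spleen NK replicate 1. The conventional NK list went both ways: of 10 peaks in 8 of 18 genes, 2 were higher, 2 lower and 6 not called, with a median of 0.09 log2.

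Within the NK list, Zeb2 is a transcriptional repressor of mature NK cells, and its exon peak read 7.18 and 6.43 CPM in liver NK, 9.17 and 7.03 in spleen NK, 16.2 and 15.4 in liver ILC1 and 32.0 and 28.2 in salivary gland ILC1, a difference of 1.54 log2 with no overlap of the groups. Other members called included 1 of 3 peaks of Itga2 (-0.31 log2), the CD49b chain of the NK gate in the series text, and the Itgam peak (1.02 log2), which was at 0.322 to 3.54 CPM.

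Cytokine receptor genes had 4 peaks higher and 2 lower of 10, and such small counts do not set a list apart from all exon peaks. Those of Ifnar1 (1.47 log2), Tgfbr2 (1.03 log2), Il2rb (0.88 log2) and Il4ra (0.46 log2) were higher, and those of Il21r (-0.64 log2) and 1 of 2 of Tgfbr3 (-1.23 log2) lower. Of 5 inhibitory receptor peaks, those of Pdcd1 (PD-1, 0.95 log2) and Tigit (0.69 log2) were higher and that of Btla (-1.40 log2) lower. Lymphocyte transcription factor genes had 20 exon peaks in 14 genes, 6 higher and 2 lower. The 3 peaks of Stat4, which carries IL-12 signals, were all higher (1.37, 0.87 and 0.98 log2), as were 1 each of Zeb2, Bach2 (1.37 log2) and Runx2 (0.93 log2), while Runx1 (-0.82 log2) and Elf4 (-0.44 log2) were lower. All these calls are over both organs. Within the liver alone, the cytokine receptor list had 2 higher and 2 lower peaks. There the inhibitory list had 0 and 1, and the transcription factor list 2 and 2.

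Among 11 peaks of adaptor and kinase genes 5 were higher and 2 lower, the lower ones belonging to Jak1 and Plcg2. Within the liver alone, 2 were higher and 2 lower. The Jak1 peak read 73.9 and 82.2 CPM in liver NK, 109 and 98.9 in spleen NK, 28.1 and 30.9 in liver ILC1 and 51.0 and 53.6 in salivary gland ILC1 (-1.20 log2). Every ILC1 library was below every NK library. The cytotoxic granule list had exon peaks only at Tnfsf10 and Gzmf of its 18 genes, the Ly49, NKG2 and NKR-P1 list only at Klra3 (not called), and the immediate early list at Nfkbia (0.90 log2), the NF-κB inhibitor, and Dusp4 (0.13 log2, not called). No list changed from mostly higher to mostly lower under library totals, promoter factors or lowess scaling, though counts moved: with promoter factors the ILC1 list had 4 higher and 0 lower and the receptor list 3 and 3, and with lowess the NK list had 2 and 3, the inhibitory list 2 and 2 and the transcription factor list 8 and 3. The egress and homing list, which includes Cxcr6 and Itgae, had 3 higher and 3 lower peaks of 8, or 2 and 3 with promoter factors and with lowess.

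Markers of other cells were few among exon peaks. None of the B cell, macrophage, neutrophil or salivary gland epithelial markers had an exon peak, and those of Cd5 (T cells) and Apob (hepatocytes, 2 neighbouring peaks) were not called between ILC1s and NK cells. Between organs they moved: both Apob peaks were lower in salivary gland than in liver ILC1s (-1.51 and -1.57 log2), and the Cd5 peak was lower in spleen than in liver NK (-1.02 log2). The 3 endothelial markers Emcn, Kdr and Pecam1 were all lower in ILC1s, at -1.44, -1.24 and -0.44 log2. Emcn read 20.6 and 21.4 CPM in liver NK, 13.6 and 12.6 in liver ILC1, 12.4 and 14.1 in spleen NK and 3.15 and 2.68 in salivary gland ILC1, so that liver ILC1 and spleen NK overlapped. In CPM of library totals alone, the summed promoter signal of 5 of 11 endothelial genes was 113 to 130 in liver NK and 79.0 to 86.3 in spleen NK. It was 76.4 to 99.2 in liver ILC1 and 52.9 to 57.0 in salivary gland ILC1, with no promoter peak for Cdh5 or Tek. Of 2 stellate cell and fibroblast marker genes with an exon peak, 1 was not called. The other, Lrat, a stellate cell marker for vitamin A storage, had a higher exon peak in ILC1s (1.65 log2). 

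Within the liver 331 exon peaks were higher and 335 lower in ILC1s, together 19.5%, against a background of 18.7% (9.83% higher and 8.85% lower). Cxcr6, Dcaf7, Trip4 and Denr were again among the 10 highest, now at 1.85 to 2.90 log2, and Lpin1, Nfkb1, Armc9, Catsperd, Lhcgr and AU019990 among the 10 lowest, at -3.55 to -2.39. Further higher peaks belonged to Glb1 (lysosomal beta-galactosidase, 2.46 log2), Cyth4 (2.06), Itga2 (2.00), Tg (thyroglobulin, 1.99), Abcb9 (a lysosomal peptide transporter, 1.84) and Dynlrb2 (1.78), and further lower ones to Gtf2a1l (-2.55), Itgae (-2.46), Prune2 (-2.35) and Ubxn2b (-2.18).

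The Glb1 peak (chr9:114421583-114422256) was high only in the liver ILC1 libraries, at 15.4 and 14.4 CPM, and ran from 0.977 to 3.46 CPM in the other 6. The liver difference was 2.46 ± 0.37 log2 (adjusted p = 1.97e-09). The Itga2 peak at chr13:114848827-114849419 had the same pattern, at 14.8 and 12.6 CPM in liver ILC1, 3.00 and 3.86 in liver NK, 4.50 and 3.81 in spleen NK and 1.16 and 1.77 in salivary gland ILC1 (2.00 ± 0.36 log2, adjusted p = 8.64e-07). Another Itga2 peak went the other way in the liver (-0.64 log2), and the third was higher (0.83 log2). Itgae encodes the CD103 integrin chain of tissue-resident lymphocytes, and its peak at chr11:73131990-73132720 read 18.3 and 24.0 CPM in liver NK and 27.8 and 20.4 in spleen NK against 4.34 and 3.41 in liver ILC1 and 5.27 and 10.3 in salivary gland ILC1. Its liver difference was -2.46 ± 0.27 log2 (adjusted p = 2.19e-17). The count of calls in the liver fell to 362 without liver ILC1 replicate 2.

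Between the ILC1s of the organs, 699 exon peaks were higher and 998 lower in the salivary gland, together 49.6%, against a background of 48.7% (22.8% and 25.9%). The highest folds belonged to Ostf1 (3.51 log2), Tmem123 (3.46), Wdyhv1 (3.38), Hist1h2bc (3.36), Cmbl (3.11), Itgb8 (3.02), Pla1a (2.98) and Mars (2.94), and the lowest to Rundc1 (-3.91), Cadm3 (-3.91), Scn10a (-3.86), Atrnl1 (-3.72), Vps13b (-3.64), Arhgap26 (-3.57), Itga11 (-3.53) and Gdpd4 (-3.49). Ostf1, named as an osteoclast stimulating factor, read 4.64 and 4.29 CPM in liver ILC1 and 48.4 and 52.9 in salivary gland ILC1, with both NK populations between 4.99 and 7.18. The difference was 3.51 ± 0.24 log2 (adjusted p = 1.71e-46). Itgb8 encodes an integrin chain that activates TGF-beta, a cytokine on which salivary gland ILC1s depend, and its peak read 7.03 and 7.02 CPM in liver ILC1, 61.6 and 52.2 in salivary gland ILC1, 12.5 and 16.1 in liver NK and 14.2 and 14.2 in spleen NK. Of the lower peaks, Rundc1 read 14.5 and 10.1 CPM in liver and 0.889 and 0.741 in salivary gland ILC1 (-3.91 ± 0.40 log2, adjusted p = 1.71e-20), and Scn10a, a voltage-gated sodium channel gene, 24.8 and 15.5 against 1.37 and 1.36.

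Between the NK cells of the organs, 341 exon peaks were higher and 844 lower in the spleen, together 34.6%, against a background of 40.6% (20.9% higher and 19.8% lower). Promoter peaks had the opposite balance, with 7871 higher and 1836 lower. The highest belonged to Kcnh6 (1.40 log2), Arf1 (1.25), Hist1h2be (1.24), Syp (1.24), Cox7a2 (1.14), Xpo1 (1.12), Glyr1 (1.11) and Trim14 (1.08), and the lowest to Ell (-2.60), Stat4 (-2.40), Usp20 (-2.35), Ubr4 (-2.27), Slc39a14 (-2.24), Rnf19b (-2.21), Tsc1 (-2.20) and Btbd9 (-2.16).

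Arf1, a small GTPase of the Golgi, read 13.2 and 11.4 CPM in liver NK and 31.7 and 27.1 in spleen NK, while both ILC1 populations were between 10.6 and 14.9. Ell, a factor for transcription elongation, read 10.8 and 5.79 CPM in liver NK, 1.23 and 1.56 in spleen NK, 5.98 and 5.75 in liver ILC1 and 23.6 and 22.7 in salivary gland ILC1 (-2.60 ± 0.35 log2 between the NK populations, adjusted p = 6.39e-11). The Stat4 peak at chr1:51996281-51997759 read 8.48 and 9.81 CPM in liver NK and 2.37 and 0.977 in spleen NK (-2.40 ± 0.35 log2, adjusted p = 1.82e-09), whereas the other 2 Stat4 peaks were not called between them. Rnf19b, a ubiquitin ligase of NK cytotoxic granules, lay at 8.88 and 3.54 CPM in liver NK and 0.573 and 2.25 in spleen NK.

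The balance of calls between organs varied with the level of a peak and with the scaling. In 4 equal bins of mean CPM, 856 peaks each, spleen NK against liver NK gave 3 higher and 260 lower in the lowest bin and 293 higher and 62 lower in the highest, and salivary gland against liver ILC1 gave 40 and 297 in the lowest and 396 and 92 in the highest. Within the liver the lowest and highest bins gave 19 and 26, and 196 and 160. With a lowess scaling by peak level, chosen after seeing the data, spleen NK against liver NK gave 569 calls, 30.1% of them higher, of which 391 were called in the same direction as before (87 higher, 304 lower) and 5 in the opposite one. Higher calls in spleen NK made up 28.8% with TMM factors of all peaks, 5.31% with library totals alone and 3.28% with factors from promoter peaks, and the median difference over all peaks was -0.11, -0.48 and -0.54 log2. For salivary gland against liver ILC1, higher calls made up 41.2%, 26.9%, 29.9% and, by lowess, 52.8%. For liver ILC1 against liver NK they made up 49.7%, 40.8%, 30.6% and 47.2%. For both ILC1 against both NK populations these shares were 51.0%, 48.7%, 45.4% and 53.4%. The share of counts in promoter peaks and the depth both moved with organ as given above, and their part in these counts was not tested. The spleen NK count was also 510 without liver NK replicate 1 and 583 without spleen NK replicate 1.

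**Figure D3:**
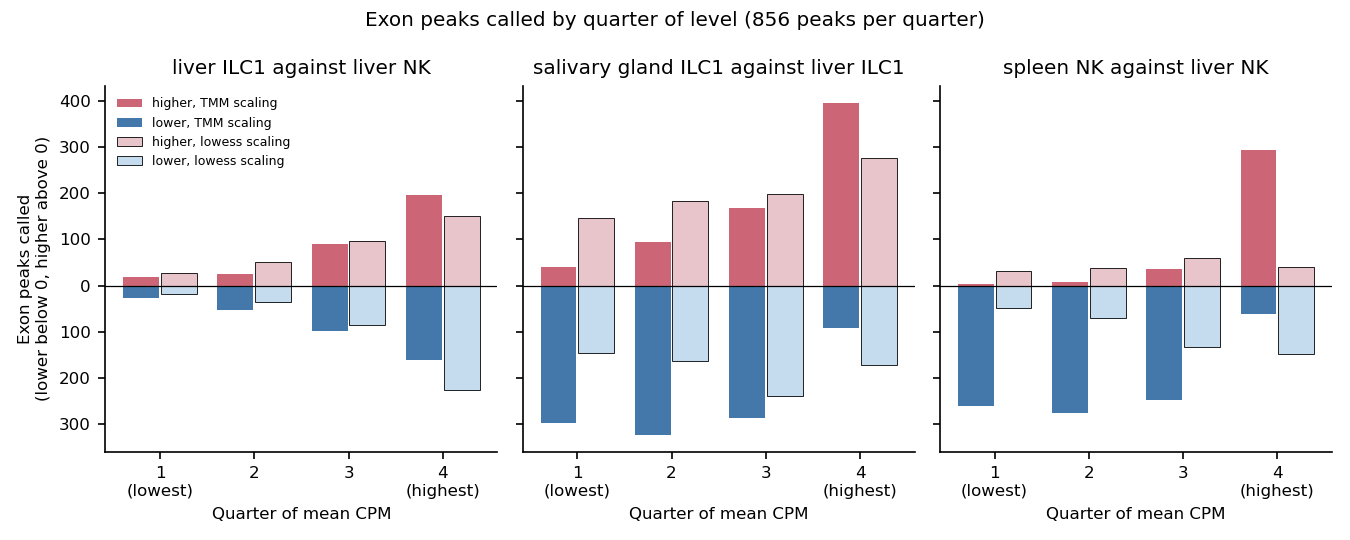
Number of exon peaks called higher (above 0) and lower (below 0) in 4 bins of mean CPM of 856 peaks each, for 3 comparisons under TMM and under lowess scaling. With TMM, spleen NK against liver NK goes from 3 higher and 260 lower in the lowest bin to 293 higher and 62 lower in the highest, and with lowess from 31 and 48 to 41 and 148.

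Whether the ILC1 to NK difference depended on the organ was tested as the difference between salivary gland ILC1 against spleen NK and liver ILC1 against liver NK, which also pairs different organs. At 605 exon peaks this was higher and at 480 lower, together 31.7%, against a background of 30.0% (13.5% and 16.6%). Ell had the highest value (4.58 ± 0.44 log2, adjusted p = 1.60e-22). Il23r encodes the receptor of IL-23, and its peak read 6.00 and 2.73 CPM in liver NK, 5.38 and 2.24 in liver ILC1, 0.737 and 1.37 in spleen NK and 16.2 and 17.8 in salivary gland ILC1 (4.33 ± 0.52 log2, adjusted p = 1.97e-14). Hist1h2bc, another histone copy, followed at 4.09 ± 0.59 log2, with spleen NK libraries at 4.58 and 0.391 CPM. The lowest were Itga2 (-3.46 ± 0.51 log2), Adcy1 (-3.27 ± 0.41), an adenylate cyclase gene, and Asrgl1 (-3.22 ± 0.49), an asparaginase gene. Adcy1 was between 9.53 and 18.5 CPM in liver and spleen libraries and at 1.23 and 1.69 in salivary gland ILC1. The Cxcr6 difference was not called as organ-dependent (0.48 log2, adjusted p = 0.45), which does not show that it was equal.

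The promoter peak of the same gene was called for some of the called exon peaks and not for others. Of 672 peaks higher in ILC1s over both organs with a promoter peak of the gene, that promoter peak was also higher for 254, lower for 50 and not called for 368 (54.8%). Of 522 lower ones, it was lower for 157, higher for 70 and not called for 295 (56.5%), where 33.6% of all promoter peaks were called. For the 537 exon peaks lower in spleen than in liver NK, the promoter peak was lower for 91 (16.9%), higher for 199 and not called for 247. Over all promoter peaks 10.2% were lower and 43.8% higher in this comparison, so lower ones were not rarer than that background. The ratio of exon to nearest promoter peak was tested with limma for 2394 pairs and was called for 478 higher and 485 lower pairs, or 40.2% of all pairs (20.0% and 20.3%), which is also the background here. At Lpin1, which has more than 1 exon peak, the promoter peak was not called (0.09 log2, adjusted p = 0.747). The exon peak named above was at -4.09 log2, a ratio difference of -4.14 ± 0.29 log2. The Nfkb1 promoter peak was not called either and read 36.4 and 44.4 CPM in liver NK, 32.8 and 46.2 in liver ILC1, 73.6 and 63.3 in spleen NK and 81.2 and 82.8 in salivary gland ILC1 (0.12 log2, adjusted p = 0.508). The Nfkb1 promoter was higher in all spleen and salivary gland libraries than in the liver ones. The Nfkb1 exon peak named above was low in the ILC1s of both organs (ratio difference -2.96 ± 0.23 log2). Exon peaks of Nfkb1 were called in both directions between ILC1s and NK cells, so this holds for that peak only.

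Fyn had the opposite arrangement. Its nearest promoter peak (chr10:39534989-39535895) was lower in ILC1s (-2.78 log2), at 20.6 and 28.8 CPM in liver NK, 46.2 and 37.3 in spleen NK, 4.49 and 2.44 in liver ILC1 and 6.50 and 6.59 in salivary gland ILC1, while both exon peaks were higher, giving ratio differences of 5.12 ± 0.24 and 3.77 ± 0.22 log2. Dapk2, a death-associated kinase gene, moved both ways too (2.20 at the exon, -0.81 at the promoter peak), and so did Rabep1 (-1.47 and 1.49), a Rab5 effector gene. At Cmklr1, the chemerin receptor of NK cells, both were lower over both organs, at -0.73 log2 for the exon and -3.40 log2 for the promoter peak. The exon peak was low only in salivary gland ILC1 (2.81 and 2.72 CPM), being at 8.75 and 8.20 in liver NK, 12.7 and 6.14 in liver ILC1 and 8.02 and 8.60 in spleen NK. S1pr5, the receptor that lets NK cells leave tissues, had an exon peak that was not called (0.30 log2) beside a promoter peak at -3.19 log2. Its ratio of 3.34 log2 rests on the promoter peak chosen, being 0.02 (adjusted p = 0.964) against the gene's promoter peak of highest CPM. Other pairs named by the same rule were Spice1 (2.83), Armc2 (-3.33), Armc9 (-3.18) and Fhad1 (-2.85).

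**Figure D4:**
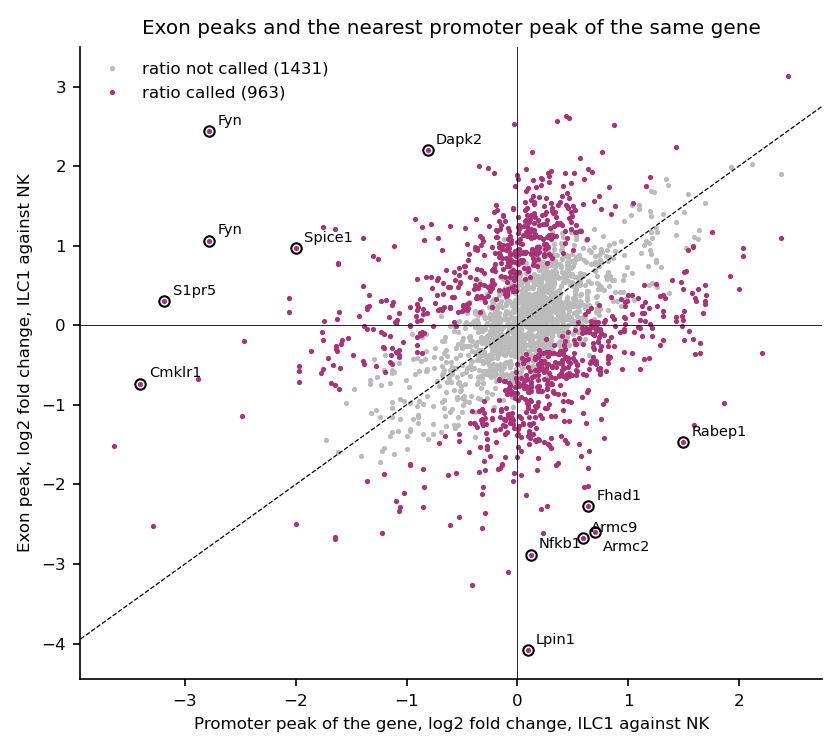
Log2 fold of ILC1 against NK in both organs at the promoter peak (horizontal axis) and at the exon peak of the same gene (vertical axis) for 2394 pairs, with the 963 pairs whose ratio was called in colour and named pairs circled; the dashed line marks equal change. Lpin1 and Nfkb1 lie far below the line near a promoter change of 0, and both Fyn peaks lie above it with promoter changes below 0.

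Several exon peaks of a gene did not always move together. Of 492 genes with at least 2 tested exon peaks, 170 had at least 2 called between ILC1s and NK cells, all in the same direction in 125 and in both in 45. In the liver these were 49, 42 and 7, the 7 including Itga2 and Nfkb1. Igf2r, which encodes the mannose 6-phosphate receptor, had 6 peaks at -2.50, -0.56, 0.49, 1.24, -0.01 and -1.10 log2, all called but the one at -0.01 (adjusted p = 0.988). Its peak at -2.50 log2 (chr17:12686227-12687503), the farthest of the 6 from the start of the gene, was at 28.2 to 48.6 CPM in NK and 3.83 to 8.39 CPM in ILC1 libraries. The one at 1.24 log2 was at 18.4 and 20.8 CPM in salivary gland ILC1 and 3.00 to 6.64 CPM elsewhere. In Tiam2, a Rac exchange factor gene, 4 of 5 peaks were lower (-1.58, -1.16, -1.88 and -0.67 log2), and in Myh9, non-muscle myosin heavy chain, 3 of 5 were higher (0.59, 1.42 and 0.72).

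RNA-seq of liver cells gave an independent readout of the genes that carry exon peaks, in other samples and with reporter gates. ILC1s were taken here as the mean of the DN, FMSP and DP populations, with equal weight. Of 2813 genes 2181 were tested (77.5%), and 117 were higher and 117 lower in ILC1s than in NK cells, 10.7%, against a background of 5.92% over 17124 genes (2.90% and 3.02%). That fit did not pair libraries of the same animal. With the mouse as a block, which pairs them, the calls were 216 higher and 231 lower (447), and with mice 4 to 6 alone there were 474. The RNA log2 values, p-values and shares beside exon peak calls given below are of the fit without this block. DP alone against NK, without the block, gave 102 higher and 64 lower. Among 268 tested genes with an exon peak higher in liver ILC1s, RNA was higher for 42 (15.7%) and lower for 8 (2.99%). Among 250 genes with a lower exon peak, RNA was lower for 37 (14.8%) and higher for 8 (3.20%), and among 1828 genes whose exon peaks were not called these shares were 4.32% higher and 4.70% lower. The pattern was not particular to exon peaks. RNA was higher for 13.7% of genes with a higher intron peak and lower for 13.6% with a lower one. For promoter peaks these shares were 11.1% and 18.5%. In pooled RNA, fewer cells of a type and less RNA per cell cannot be told apart.

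Of 112 exon peaks called in the liver whose gene was also called in RNA, 92 moved in the same direction (79 genes) and 20 in the opposite one (16 genes). Cxcr6 RNA was at 6.60, 1.35, 4.40 and 3.58 CPM in NK libraries, 576 to 935 in DN, 913 to 1359 in FMSP and 1058 to 1642 in DP, a log2 difference of 7.99 ± 0.46 (adjusted p = 1.90e-07). Every ILC1 library was above every NK library, as at the peak. Trip4, a subunit of a transcription coactivator complex, was higher too (1.70 ± 0.32 log2, adjusted p = 0.00334), as were Abcb9 (3.04 ± 0.40 log2), Tmem176a (5.39 ± 0.47 log2), Itga1 (4.85 ± 1.02 log2) and Tnfsf14 (1.36 ± 0.34 log2), the cytokine LIGHT. For Itga1 the libraries of mice 1 to 3 stood below those of mice 4 to 6 in each population: 0.0188 against 8.48 to 16.8 CPM in NK, 57.0 against 276 and 300.5 in DN, 124 against 333 to 435 in FMSP and 148 against 373 to 559 in DP. The ILC1 libraries were above the NK libraries within both sets of mice. Lpin1 RNA was at 363, 293, 351 and 194 CPM in NK libraries and 17.3 to 59.2 in the 11 ILC1 libraries (-3.07 ± 0.23 log2, adjusted p = 1.36e-06). Ubxn2b (-1.40 ± 0.31 log2) and Jak1 (-1.21 ± 0.13 log2) were lower in both readouts.

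The genes that moved oppositely included Fyn, Itga2, Zeb2, Klf3 and Il2ra. Fyn RNA was at 885 to 1035 CPM in NK and 292 to 491 in ILC1 libraries (-1.36 ± 0.14 log2, adjusted p = 2.13e-05), the direction of its promoter peak and the opposite of its exon peaks. Zeb2 RNA was lower in ILC1s (-4.32 ± 0.66 log2) beside an exon peak that was higher in the liver (1.20 log2), and the same was found for Klf3 (-2.07 log2 in RNA, 0.78 at the peak), a repressor of the Krüppel-like family. Itga2 RNA was lower (-2.83 ± 0.36 log2), with 2 exon peaks higher and 1 lower. Il2ra, the high-affinity IL-2 receptor chain, had RNA at 1.07 to 8.37 CPM in NK and 14.5 to 73.0 in ILC1 libraries (3.10 ± 0.68 log2) and an exon peak that was lower in liver ILC1s (-0.96 log2, adjusted p = 0.0232). That Il2ra peak holds the start of Gm39759 whose window is printed above.

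**Figure D5:**
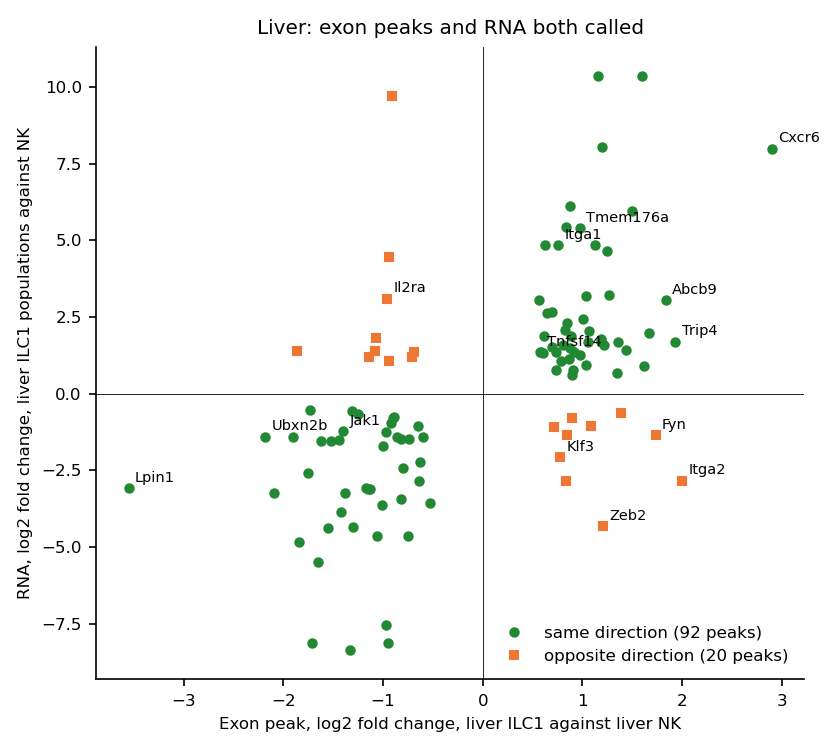
Log2 fold of liver ILC1 against liver NK at the exon peak (horizontal axis) and in the RNA of its gene (vertical axis) for the 112 exon peaks called in both. 92 peaks lie in the quadrants of equal sign, Cxcr6 and Lpin1 among them, and 20 in the others, with both Fyn peaks and 2 of the Itga2 peaks at higher accessibility and lower RNA.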

How the data were processed

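ATAC-seq and RNA-seq libraries of sorted mouse cells were grouped by the submitters' labels. For ATAC-seq the authors deposited a count of reads per peak on mm10, with the peak's type and assigned gene, and for RNA-seq a table of estimated counts per gene that are whole numbers. The submitters' processing notes name Salmon 1.6, Bowtie2, SAMtools, MACS2 and DESeq2 without their roles; the peak calling settings and whether peaks were called on pooled samples are not given in the sources used here. No value column was left unmapped (0). Coordinates are printed as deposited.

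Counts of all peaks, or all genes, were fitted with edgeR 4.0.16 in R 4.3.3 (filterByExpr with a minimum count of 10, TMM factors, robust quasi-likelihood test, 1 mean per population) and adjusted by Benjamini-Hochberg over all features, with calls at adjusted p below 0.05. The residual degrees of freedom between ATAC libraries were 4. Exon to promoter ratios were tested with limma 3.58.1 of log2 CPM values (prior count 2). DESeq2 1.42.0, other scalings, no filter on low counts, the replicate block and leaving out each library were alternatives. The test scripts were tested on simulated data. Named peaks are those of the gene lists, the highest in level or number, and per comparison up to 10 (8 between organs, 3 for organ dependence) in each direction, by fold among called peaks of at least 5 CPM in a group, with no overlap between the libraries compared and a symbol that is not a predicted gene. For organ dependence the condition on overlap was not applied. The members, gene lists and this rule were chosen with earlier results of these data known.

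RNA libraries held 51641248 to 73309063 counts. RNA mouse numbers name the animal and pair libraries. ATAC labels do not say whether populations with the same replicate number share a mouse. Over 6 pairs of populations, the correlation of same-numbered deviations ran from -0.120 to 0.179, so the numbers were not used as pairs. Promoter windows and gene spans are from RefSeq GRCm38.p6; a mm10 genome sequence was not used here. The result of 1 listed gene is not reported here.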

Additional observations from a re-analysis of the deposited data

Results flagged for a closer look

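The difference between ILC1s and NK cells depended on the organ pair, by the edgeR test of the difference itself, at 1085 exon peaks. Each value below is the log2 difference of salivary gland ILC1 against spleen NK minus that of liver ILC1 against liver NK. Over all exon peaks 31.7% were called, and 30.0% of all peaks. The peaks below are those called among the 34 named in the ILC1 against NK, liver and organ comparisons. They were named for large folds, and Ell, Il23r, Hist1h2bc, Itga2, Adcy1 and Asrgl1 for this value itself, so their number shows nothing further. At Ell (4.58), Il23r (4.33), Hist1h2bc (4.09), Slc39a14 (4.00), Pex16 (3.94), Senp8 (3.14), Pmpca (2.71), Irak2 (2.12), Denr (1.56), Fyn (1.41), Trip4 (1.27) and Dcaf7 (0.74) the value was above 0. For the peaks from Slc39a14 to Dcaf7, which were higher in ILC1s, the difference was the larger one outside the liver. At Itga2 (-3.46), Adcy1 (-3.27), Asrgl1 (-3.22), Fnip2 (-2.44), Grhl3 (-2.19), Cd300e (-2.12), AU019990 (-1.75), Catsperd (-1.22) and Lpin1 (-1.07) it was below 0. Gtf2a1l (0.79) and Itgae (0.85), which were lower in liver ILC1s than in liver NK, had the larger drop in the liver. Their adjusted p-values ran from 1.60e-22 (Ell) to 0.0488 (Itgae).

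In RNA, Trip4 had a sample far below the others of its group in both groups of mouse 3. The FMSP library of mouse 3 was at 113 CPM against 246 to 253 in the other 3, and the DP library of mouse 3 at 153 CPM against 261 to 283. These were the 2 groups flagged of 45 examined for 15 genes, and chance flags about 1 in 20 groups. DN groups were not examined, and in DN the library of mouse 2 was at 69.7 CPM against 201 and 203. In NK the library of mouse 1 was at 48.4 CPM against 55.2 to 82.1. Libraries of mice 1 to 3 were thus the lowest in each population, as for Itga1, so the lower level was not confined to mouse 3.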

How the results depend on the processing

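Counts of called exon peaks and genes kept within 1.5 times of those reported under all alternatives except those given here. With lowess scaling, chosen after seeing the data, spleen NK against liver NK gave 569 calls. RNA calls were 447 with the replicate block (mouse number), 474 in mice 4 to 6 alone and 384 with DESeq2. The exon share difference was 0.393 points outside promoter peaks.

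Leaving out each library in turn gave 362 to 727 calls in the liver comparison, the lowest without liver ILC1 replicate 2, and 510 to 1255 for spleen NK against liver NK, the lowest without liver NK replicate 1. The exon share difference ran from -0.105 to 0.293 points and reversed without liver ILC1 replicate 1 (-0.0216), spleen NK replicate 1 (-0.105) or spleen NK replicate 2 (-0.0617). The ATAC replicate block, whose numbers were not taken as pairs, gave 1672, 685, 1724, 1213 and 1116 calls in the order of the report (2632 for any difference, 992 for the ratio). The causes of these changes were not tested.

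Of 90 named values recomputed 1363 times, 1349 kept direction and call, 14 (of 7 values) lost the call and 0 reversed. These were Xpo1 (adjusted p up to 0.198), Hist1h2bc in both comparisons (up to 0.199, against 2.73e-07 as reported for organ dependence), Rnf19b (0.0523), Dynlrb2 (0.0560), Cox7a2 (0.0953) and the S1pr5 ratio (0.964). Of the 856 exon peaks up to 5.22 CPM, 5.26% were called in the liver, 30.7% between NK cells and 39.4% between ILC1s of the organs, against 41.6%, 41.5% and 57.0% of the 856 from 14.8 CPM; the part of depth in this was not tested.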

Other observations

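Zinc finger genes whose symbols start with Zfp had 33 exon peaks in 31 genes, of which 10 were higher and 7 lower in ILC1s than in NK cells over both organs, near the 24.6% and 23.6% of all exon peaks. The Zfp839 peak at chr12:110865501-110866963 read 9.53 and 9.81 CPM in liver NK, 8.23 and 7.02 in liver ILC1, 6.22 and 6.25 in spleen NK and 47.5 and 44.4 in salivary gland ILC1, so that the salivary gland libraries alone stood above the rest. The Zfp142 peak had the same order, at 36.9 and 35.2 CPM in salivary gland ILC1 and 5.89 to 10.7 CPM in the other 6 libraries. Zfp831 was the reverse, at 3.63 and 0.700 CPM in salivary gland ILC1 and 9.09 to 16.7 CPM elsewhere. Of 7 exon peaks of keratin and olfactory receptor genes, which are not known for a role in these cells, 4 were higher in ILC1s and 0 lower (3 and 0 with library totals or promoter factors). The 4 were Olfr56 (0.40 log2), Krt1 (0.43), Krt77 (0.74) and Olfr1261 (0.58), and none was called within the liver. These peaks were chosen after their values were seen.

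A single exon peak held a microRNA hairpin, that of Mir12181 in the Coro6 peak. Its accessibility was near the same in all libraries, at 12.4 to 14.9 CPM, and it was not called in any comparison.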
